A study of Mus musculus with 8 samples.

Results

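CpG methylation was compared between B and T lymphocytes at 8 genes of the Bcl2 family, taken by name from the 21755 protein-coding genes on the autosomes and X of the GENCODE M21 annotation (GRCm38). Each gene was examined over its body plus 10 kb on each side, which gave 5632 of the 18714703 CpGs with 5 or more reads in all 4 deposited files. The members are Bcl2, Bcl2l1 (which encodes Bcl-xL) and Mcl1, whose proteins keep cells alive; Bcl2l11 (Bim), Bmf and Bbc3 (Puma), the BH3-only genes, whose proteins bind and inhibit the survival proteins; and Bax and Bak1, the effectors that form pores in the outer mitochondrial membrane. The balance between these proteins decides whether cytochrome c leaves the mitochondrion and caspases are activated. In resting lymphocytes, Bcl2 is a known survival factor of naive T cells, Mcl1 is required by both B and T cells, and Bim limits the lifespan of both.

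Whole-genome bisulfite sequencing (WGBS) reads a protected cytosine as methylated, so 5-methylcytosine and 5-hydroxymethylcytosine are counted together. The cells came from the spleens of C57BL/6J mice of 6 to 8 weeks, untreated and without any transgene named in the labels. CD43- resting B cells and naive CD4+, CD62L-high, CD44-low, CD25- T cells were taken from females and from males, which gave 4 groups of 2 samples, each sample pooled from several animals. Each group has 1 deposited file, and the sources do not state whether it merges both samples of the group or holds 1 of them. The 2 files of a cell type therefore differ in sex, and each difference between B and T cells was seen once in females and once in males. The p-values rest on read counts and on the spread between these files only. For 1 kb windows they use an average spread, not that of the window itself. This average came from the 1190101 of 2018320 windows with 5 or more expected methylated and unmethylated reads in every file. Mean coverage was 14.6 to 17.7 reads per CpG and the autosomal methylation level was 79.5% to 80.7%. The B cell marker promoters of Cd79a, Cd79b, Ms4a1, Cd22 and Blk were each called lower in B cells, and 5 of 6 T cell marker promoters were called higher in B cells. The exception was Cd28, at 90.1% and 90.7% in the B cell files and 94.0% and 93.4% in the T cell files. The promoters of Cd8a and Cd8b1, genes of CD8 T cells, were also called higher in B cells, by 20.9 and 50.3 points. Of the 5 myeloid and NK cell marker promoters, Lyz2 came nearest to a call and was lower in B cells by 19.3 points (adjusted p = 0.0436). The part of these other cell types in the results below was not tested.

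The stretches below show the reference sequence inside some of the called regions. They were picked after their values were seen, and within each region the 200 bp with 3 or more measured CpGs whose smaller difference of the 2 sexes was largest, outside untranslated regions, is shown. They are GRCm38 reference sequence on the + strand, and capitals mark the CpGs with 5 or more reads in all files.
Bcl2 intron 1, near the start, chr1:106709267-106709466: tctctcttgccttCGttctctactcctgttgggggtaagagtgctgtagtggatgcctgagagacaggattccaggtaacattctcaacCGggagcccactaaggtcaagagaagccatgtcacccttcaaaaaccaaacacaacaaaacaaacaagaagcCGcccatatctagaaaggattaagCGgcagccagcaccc
Bcl2 intron 1, middle, chr1:106606991-106607190: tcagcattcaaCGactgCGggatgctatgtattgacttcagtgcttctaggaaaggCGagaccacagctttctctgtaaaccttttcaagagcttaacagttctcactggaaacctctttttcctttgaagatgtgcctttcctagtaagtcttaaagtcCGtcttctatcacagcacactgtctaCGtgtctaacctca
Bcl2 intron 1, distal, chr1:106555588-106555787: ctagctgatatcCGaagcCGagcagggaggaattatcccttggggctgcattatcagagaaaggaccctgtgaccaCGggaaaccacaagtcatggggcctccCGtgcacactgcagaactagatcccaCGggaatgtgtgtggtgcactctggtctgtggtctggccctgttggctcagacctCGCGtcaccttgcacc
Bcl2l1 intron 2, first stretch, chr2:152803310-152803509: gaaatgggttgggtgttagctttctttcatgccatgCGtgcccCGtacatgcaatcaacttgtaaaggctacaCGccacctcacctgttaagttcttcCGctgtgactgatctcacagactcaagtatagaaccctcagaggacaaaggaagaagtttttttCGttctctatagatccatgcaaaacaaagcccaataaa
Bcl2l1 intron 2, second stretch, chr2:152793406-152793605: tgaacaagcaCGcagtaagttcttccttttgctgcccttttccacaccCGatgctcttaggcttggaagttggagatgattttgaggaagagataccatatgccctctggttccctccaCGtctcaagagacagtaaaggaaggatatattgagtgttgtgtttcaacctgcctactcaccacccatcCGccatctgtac
Mcl1 upstream, chr3:95652622-95652821: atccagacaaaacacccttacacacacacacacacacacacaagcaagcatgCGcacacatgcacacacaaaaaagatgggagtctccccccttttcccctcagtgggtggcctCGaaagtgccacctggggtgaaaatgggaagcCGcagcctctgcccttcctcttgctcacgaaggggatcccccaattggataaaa
Mcl1 downstream, chr3:95664212-95664411: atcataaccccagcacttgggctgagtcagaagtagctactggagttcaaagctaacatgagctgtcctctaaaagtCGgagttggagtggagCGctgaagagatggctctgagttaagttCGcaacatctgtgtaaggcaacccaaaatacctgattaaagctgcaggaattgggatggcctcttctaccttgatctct
Bcl2l11 upstream, chr2:128117777-128117976: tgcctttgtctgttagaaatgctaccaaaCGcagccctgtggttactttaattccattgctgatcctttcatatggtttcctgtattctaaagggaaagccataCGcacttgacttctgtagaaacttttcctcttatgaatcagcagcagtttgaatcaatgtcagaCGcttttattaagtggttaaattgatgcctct
Bcl2l11 intron 3, chr2:128153498-128153697: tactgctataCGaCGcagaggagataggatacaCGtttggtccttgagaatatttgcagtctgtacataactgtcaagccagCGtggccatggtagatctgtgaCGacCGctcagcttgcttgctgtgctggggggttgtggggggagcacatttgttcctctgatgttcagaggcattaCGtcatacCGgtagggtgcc
Bmf intron 4, chr2:118534226-118534425: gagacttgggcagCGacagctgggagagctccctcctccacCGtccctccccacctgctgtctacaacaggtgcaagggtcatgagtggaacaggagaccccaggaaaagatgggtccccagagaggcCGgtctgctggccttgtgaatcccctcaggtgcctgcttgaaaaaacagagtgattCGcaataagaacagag
Bbc3 promoter, chr7:16308759-16308958: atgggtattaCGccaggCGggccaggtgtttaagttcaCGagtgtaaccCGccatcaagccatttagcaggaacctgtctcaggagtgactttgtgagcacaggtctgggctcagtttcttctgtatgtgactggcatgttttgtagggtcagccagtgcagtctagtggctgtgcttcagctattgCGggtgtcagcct

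The first Bcl2 stretch held 4 measured CpGs and was methylated at 90.5% in female B, 96.8% in male B, 26.2% in female T and 32.8% in male T cells. The middle stretch held 5 CpGs at 89.3% and 95.7% in the B cell files and 0.962% and 0.820% in the T cell files. The distal stretch turned the other way, with 7 CpGs at 3.36% and 3.70% in the B cell files and 81.5% and 81.8% in the T cell files. Thus short stretches of a single intron were almost unmethylated in one lymphocyte and above 80% in the other, in both directions. The first Bcl2l1 stretch was at 94.8% and 92.9% in B and 1.67% and 3.75% in T cells, and the second was at 29.7% and 33.9% in B and 78.9% and 80.5% in T cells. The Mcl1 upstream stretch had no methylated read in either B cell file, out of 22 and 56 reads, against 88.6% and 95.7% in the T cell files. A count of 0 in 22 reads allows a level of up to 14.9% by the Wilson 95% interval, which, as elsewhere, covers counting error only. The Mcl1 downstream stretch had 84.1% and 83.6% in B and 14.7% and 15.7% in T cells. Upstream of Bcl2l11, where the gene Acoxl is also annotated, 3 CpGs were at 90.8% and 93.0% in B and 1.92% and 0% in T cells; the 0% rests on 55 reads, which allow a level of up to 6.53%. The 8 CpGs of Bcl2l11 intron 3 were at 60.0% and 51.7% in B and 2.45% and 2.38% in T cells. Bmf intron 4 stood at 6.32% and 4.76% in B and 64.7% and 69.5% in T cells, and the Bbc3 stretch at 10.5% and 8.33% in B and 63.2% and 57.3% in T cells. These values chose the stretches and are given as a description.

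The first comparison asked whether the promoters of the members, taken as the outermost annotated gene start ± 1 kb, differ between B and T cells. None of the 8 was called at an adjusted p under 0.05 with a difference of 20 points or more, where 0.915% of the 21082 promoters tested were called. By unadjusted p under 0.05 the count was 1 of 8, beside 3008 of the 21082 promoters, and limma on log2 ratios and Fisher's exact test also called 0. Promoters of 5 members, Bcl2, Bcl2l1, Mcl1, Bcl2l11 and Bmf, were methylated below 10% in all 4 files, as were 37.7% of all promoters tested. Their observed over expected CpG ratios ran from 0.576 (Bmf) to 0.855 (Mcl1), and 4 of the 5 lay above 0.6, as did 35.2% of all promoters tested. The B minus T differences of these 5 promoters lay between -1.19 points (Bcl2l1) and 0.411 points (Bcl2).

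**Figure D1:**
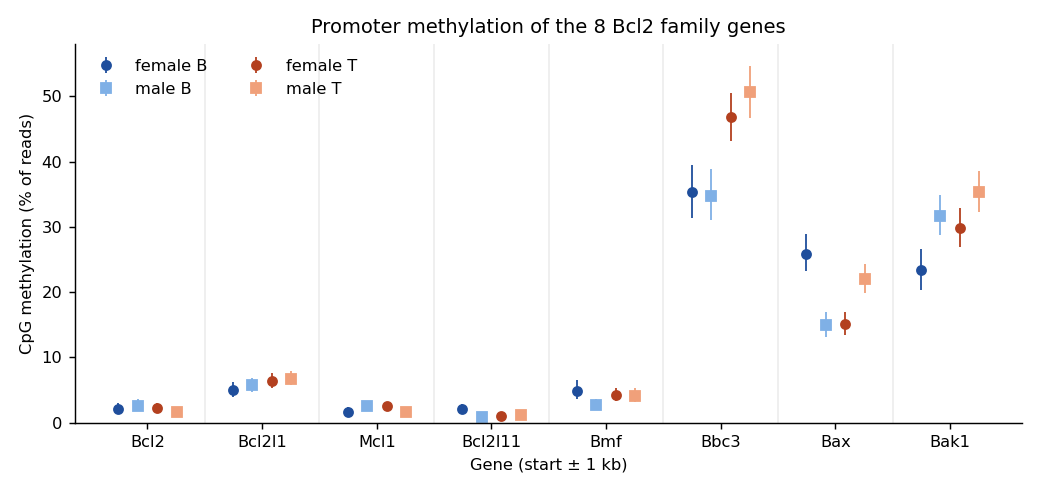
Methylation of the start ± 1 kb of each gene in each file, as percent of reads over all CpGs with 5 or more reads in all files; bars are 95% Wilson intervals, which cover counting error only. Bcl2, Bcl2l1, Mcl1, Bcl2l11 and Bmf lie below 10% in every file, while Bbc3, Bax and Bak1 lie between 15.0% and 50.6%; the Bbc3 value is that of its outermost start, Bbc3-204.

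The other 3 promoters carried intermediate methylation. For Bbc3, a p53 target gene, the outermost start is that of Bbc3-204, not of its main transcript Bbc3-201, which begins 1223 bp further in. This outermost start was at 35.3% in female B, 34.8% in male B, 46.8% in female T and 50.6% in male T cells. Both B cell files were below both T cell files, and the difference of -13.6 points had an adjusted p of 0.0341 but did not reach 20 points. With the start ± 500 bp in place of 1 kb, it was called. At the start of the main transcript, methylation was 1.16% and 0.968% in the B cell files and 5.55% and 4.32% in the T cell files (difference -3.87 points, adjusted p = 3.77e-04 over all transcript starts), so low methylation was found there in both cell types. The Bax promoter stood at 25.9% in female B, 15.1% in female T, 15.0% in male B and 22.0% in male T cells. Here the cell types overlapped, since B cells were higher in females (by 10.9 points) and lower in males (by 7.05 points), and the mean difference was 1.91 points (adjusted p = 0.937). Bak1 was at 23.4% and 31.7% in the B cell files and 29.8% and 35.3% in the T cell files, which overlap, and differed by -5.02 points (adjusted p = 0.367). CpGs were sparser at Bbc3 and Bak1, with observed over expected ratios of 0.272 and 0.263.

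Other members also have further annotated starts inside the gene. At the start of Bmf-202, which lies 2128 bp after the main Bmf start, methylation was 12.7% and 13.4% in the B cell files and 29.4% and 33.6% in the T cell files. The B cell files were lower in both sexes, by 18.5 points on average (adjusted p = 0.00136 over all transcript starts), short of 20 points. At Bcl2l1-206 the direction was the other: 26.9% and 26.2% in B and 18.3% and 18.7% in T cells (difference 8.04 points, adjusted p = 0.00892). The start of Bcl2-202 was at 5.36% and 3.85% in B and 0.841% and 0.645% in T cells. None of the members' 28 annotated starts was called, in a fit over all 53035 starts tested. The called share over that set is not given here. In the separate fit of the 21082 promoters at outermost gene starts, 0.915% were called by the same limits. By unadjusted p under 0.05 there were 10, of which 5 were overlapping starts of Bcl2l1, beside 16.9% of all 53035 starts tested.

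The second comparison covered the rest of each gene in 1 kb windows, called by the same rule. Of the 462 windows of the members with 3 or more usable CpGs, 63 were called (13.6%). The share was 2.08% of the 2018320 windows tested in the genome and 2.77% of the windows within protein-coding genes plus 10 kb. The members were chosen with earlier results of these data known, so these shares describe them and are no test of the family. B cells were higher in 35 windows and lower in 28; the genome-wide shares were 1.16% higher and 0.913% lower. All 63 had the same sign in females and males, though sign agreement is partly built into a mean difference of 20 points. The median B minus T difference over the 462 windows was 0.224 points, beside 0.0489 points over all windows tested. Introns held most calls, with 46 of 241 windows (19.1%), where 2.95% of the windows in introns of protein-coding genes were called. The upstream flanks had 5 calls in 69 windows, the downstream flanks 6 in 79, exons 5 in 49, and promoters 1 in 24, the Bbc3 window described below.

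**Figure D2:**
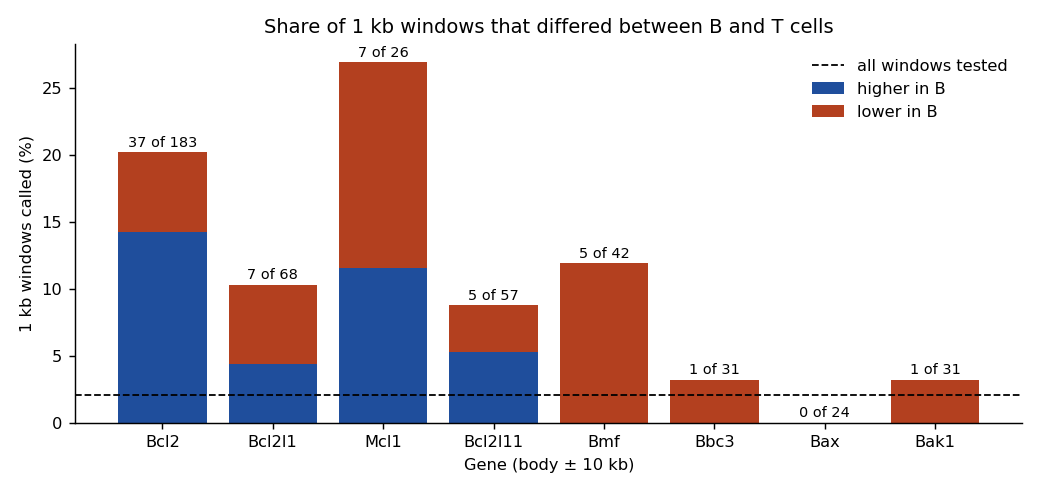
Percent of 1 kb windows of each gene (body ± 10 kb) called between B and T cells, split by direction, with the number called of the number tested above each bar; the dashed line is the share of all windows tested (2.08%). Mcl1 and Bcl2 have the highest shares and Bax has none.

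By role, the survival genes had 51 of 277 windows called (18.4%), 32 higher and 19 lower in B cells, of which Bcl2 gave 26 higher and 11 lower. The BH3-only genes had 11 of 130 (8.46%), 3 higher and 8 lower. The effectors had 1 of 55 (1.82%), which was lower, a share below the 2.08% of all windows tested. Bcl2 alone gave 37 of the 63, and without it 26 of 279 windows (9.32%) were called, with the larger number on the other side (9 higher and 17 lower in B cells). Among the 19012 protein-coding genes with 20 or more windows tested, 1.17% had a share of called windows at or above that of Bcl2 (20.2%), 0.510% at or above that of Mcl1 (26.9%), and 46.1% had no call at all. The same measure was 4.99% for Bmf, 6.70% for Bcl2l1, 9.14% for Bcl2l11 and 34.3% for both Bbc3 and Bak1, while Bax had no call. The counts depended on the estimate of spread: a prior dispersion from all windows left 23 calls (14 higher, 9 lower; 4.98%, beside 0.694% of all windows) and limma on log2 ratios left 35 (25 higher, 10 lower; 7.58%, beside 1.02%). Of these, Bcl2 gave 10 higher and 3 lower with that prior, and 19 higher and 3 lower by limma. The excess of lower windows without Bcl2 was therefore smaller in both fits. Neighbouring windows share reads and domains, so windows are not independent of each other. The ranks among genes are a description as well, since the members were chosen with earlier results of these data known.

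Bcl2 spans 176097 bp on the minus strand of chromosome 1 (106538178 to 106714274), nearly all of it in intron 1. Called windows of one direction within 1 kb of each other were merged, which gave 22 stretches in this intron, 16 higher and 6 lower in B cells. The stretch nearest the gene start, chr1:106708001-106712000, covered 4 windows and 33 CpGs in intron 1 of Bcl2-201 and partly in the 3′ untranslated region of the shorter Bcl2-202. It was methylated at 87.8% in female B, 86.9% in male B, 17.9% in female T and 19.0% in male T cells. At all 33 CpGs, which the calls chose, both B cell files were above both T cell files. The same held at 22 of 29 CpGs of the stretch chr1:106599001-106603000 and at 20 of 39 of chr1:106687001-106690000. These CpG counts follow from the calls and add no support to them. No share over all CpGs is given here to judge them by. Within chr1:106708001-106712000, the window with the largest difference, chr1:106710001-106711000, was at 93.0% and 88.8% in B and 16.2% and 15.2% in T cells. The difference was 75.2 points (adjusted p = 3.85e-56, and 0.00443 by limma on log2 ratios).

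**Figure D3:**
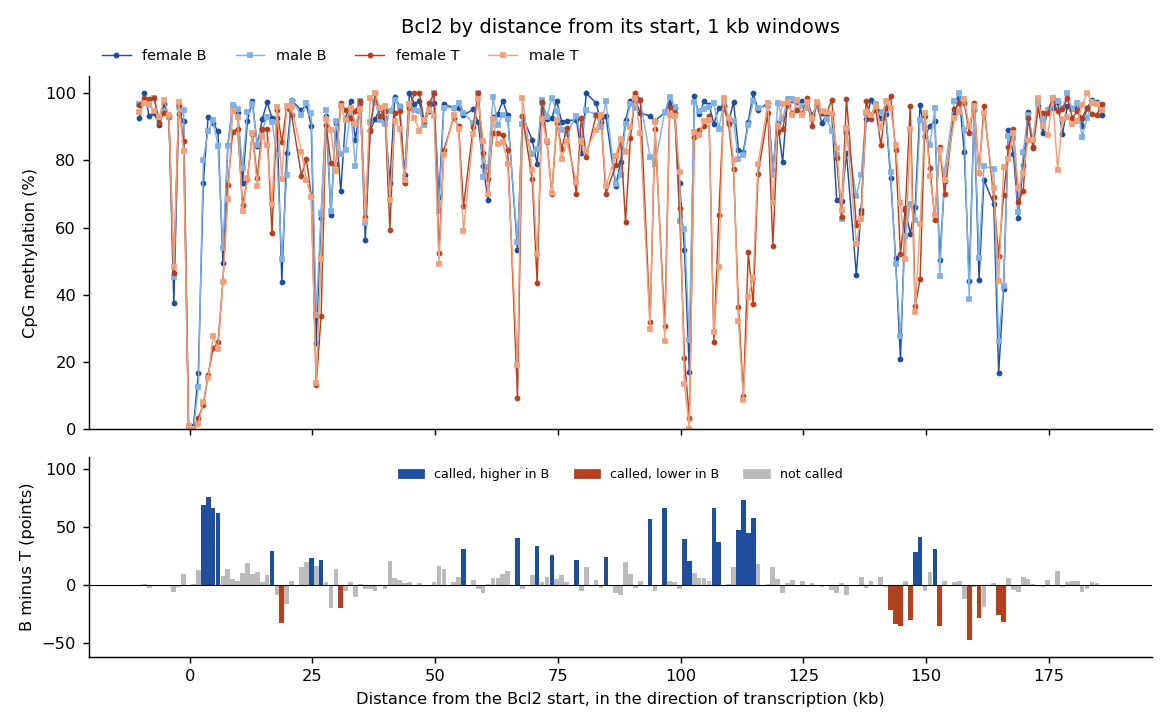
Methylation of Bcl2 in 1 kb windows of each file (top) and the B minus T difference (bottom) by distance of the window from the gene start in the direction of transcription; 37 of 183 windows were called. Blocks higher in B cells lie 2.77 to 5.77 kb and 93.8 to 115 kb after the start, and most windows lower in B cells lie 143 to 166 kb after it.

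Further into the intron, another group of stretches was higher in B cells. The stretch chr1:106599001-106603000 (29 CpGs, 113 kb after the start) was at 86.2% and 85.1% in B and 31.9% and 28.5% in T cells. The stretch chr1:106606001-106608000 was at 92.7% and 93.8% in B and 41.1% and 35.1% in T cells, and the single window chr1:106617001-106618000 at 94.3% and 94.5% in B and 30.6% and 26.3% in T cells. In these stretches no file of one cell type reached a file of the other. At chr1:106612001-106614000 methylation was intermediate in B cells (39.5% and 46.7%) and low in T cells (13.7% and 7.89%). The remaining stretches of more than 1 window that were higher in B cells were chr1:106687001-106690000, by 22.1 points, and chr1:106565001-106567000, by 35.9 points. Over the 16 higher stretches, methylation ranged from 39.5% to 98.7% in B and from 7.89% to 73.7% in T cells.

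The distal end of the same intron held most of the stretches that were lower in B cells. They lie where the lncRNA gene D630008O14Rik is annotated on the opposite strand, and reads of a CpG there belong to both genes. The stretch chr1:106548001-106550000 was at 25.7% and 32.9% in B and 58.2% and 58.4% in T cells. The stretch chr1:106553001-106556000 was at 52.0% and 51.7% in B and 85.1% and 85.7% in T cells, and chr1:106567001-106572000 at 50.6% and 53.6% in B and 78.0% and 78.5% in T cells. Within them, the window chr1:106555001-106556000 was at 44.1% and 38.8% in B and 88.3% and 90.2% in T cells (difference -47.8 points, adjusted p = 1.14e-52). In the model used here, calls in both directions thus stood side by side, with windows higher in B cells at 148 to 152 kb between windows lower in B cells at 143 to 147 kb and 153 to 166 kb after the start. Of the calls in Bcl2, 26 higher and 11 lower, limma made 19 higher and 3 lower, and the prior dispersion from all windows left 10 higher and 3 lower. The gene body as a whole was at 81.2% and 81.0% in B and 74.7% and 74.1% in T cells, 6.65 points higher in B cells (adjusted p = 5.42e-05), though it was not called by limma. Gene bodies were called at a difference of 5 points or more, which 6.55% of the 19825 bodies tested met.

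Bcl2l1 lies on the minus strand of chromosome 2 and had 7 of 68 windows called, 3 higher and 4 lower in B cells, 6 of them in intron 2. The window chr2:152803001-152804000, 28.2 kb after the start, was at 94.9% and 95.5% in B and 42.5% and 35.4% in T cells (difference 56.3 points, adjusted p = 1.99e-29). About 10 kb further, 3 adjoining windows (chr2:152792001-152795000, 23 CpGs) ran the other way, with 28.4% and 27.2% in B and 67.2% and 61.7% in T cells. The lowest of the 3 was at 2.75% and 1.94% in B and 40.5% and 37.3% in T cells. The window of the 3 with the largest mean difference, chr2:152793001-152794000, stood at 50.8% and 43.0% in B and 87.1% and 88.5% in T cells (difference -40.9 points, adjusted p = 2.09e-17). With the prior dispersion from all windows its adjusted p was 0.0502, and 2 of the 68 windows were called, against 4 by limma. The Bcl2l1 body did not pass (75.6% and 75.7% in B, 75.3% and 73.7% in T cells).

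Mcl1 is a short gene of 4389 bp on the plus strand of chromosome 3, with 7 of 26 windows called, all of them in its flanks or its last exon. Upstream, 4 adjoining windows (chr3:95650001-95654000, 49 CpGs) were at 45.6% and 39.3% in B and 84.2% and 81.6% in T cells. At 44 of the 49 CpGs, which the calls chose, both B cell files were below both T cell files. The window chr3:95652001-95653000, centred at -6.29 kb from the start, was at 11.7% and 10.9% in B and 70.9% and 69.3% in T cells (difference -58.8 points, adjusted p = 2.66e-38). With CpGs of 10 or more reads in all files only, its difference was -30.7 points (adjusted p = 2.73e-04). Downstream the direction was reversed, and at 14 of the 22 CpGs in the called stretch both B cell files were above both T cell files. Both CpG counts follow from the calls and are a description, without a share over all CpGs beside them. The 3 windows from the 3′ untranslated region onward (chr3:95663001-95666000, 22 CpGs) were at 62.5% and 60.8% in B and 25.8% and 23.1% in T cells, and the last of them at 74.0% and 67.7% in B and 27.5% and 19.2% in T cells (difference 47.5 points, adjusted p = 9.77e-10; 0.0620 with the prior dispersion from all windows). Of the 26 windows, 3 were called with that prior and 5 by limma. The low methylation around the start therefore ended sooner in B cells on the downstream side. Smoothed over 5 CpGs, the run below 30% around the Mcl1 start was 4180 bp long in both B cell files, 5901 bp in female T and 6181 bp in male T cells. The Mcl1 body was 7.39 points higher in B cells (11.6% and 8.62% against 2.74% and 2.67%; adjusted p = 0.00927), but it holds 33 CpGs and was not called without the female B, the female T or the male T file, or with CpGs of 10 or more reads only. By limma it was the only member body called.

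The run around the Bcl2 start differed in the same way, with 2390 and 2414 bp in the B cell files and 6337 and 5368 bp in the T cell files. Its extra length in T cells lay downstream, where the run reached 1844 and 1868 bp after the start in B cells and 5789 and 4822 bp in T cells. The mean excess in T cells was 3450 bp at Bcl2 and 1861 bp at Mcl1 at the limit of 30%, against 1064 and 2498 bp at a limit of 20% and 5067 and 987 bp at 50%. At Bmf the run was longer in B cells (2852 and 2842 bp against 2486 and 1952 bp), but at 50% the female files were equal (4210 bp each). The runs at Bcl2l1 (1812 to 2129 bp) and Bcl2l11 (5873 to 5938 bp) varied little over the 4 files at the limit of 30%. At a limit of 20%, however, the Bcl2l11 run was 3254 and 3212 bp in B and 5827 and 5875 bp in T cells. Bbc3 and Bak1 had no CpG run below 30% at their outermost starts, which for Bbc3 leaves out the low methylation at Bbc3-201. These lengths are a description without a test.

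**Figure D4:**
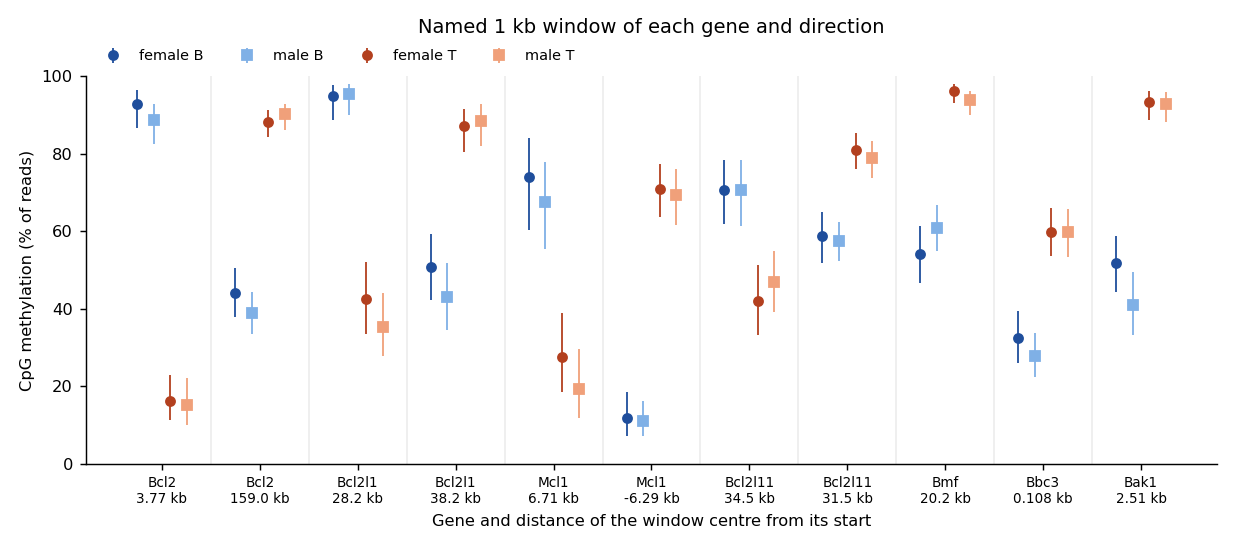
Methylation in each file of 1 called 1 kb window for each gene and direction, the one whose smaller difference of the 2 sexes was largest, labelled by its distance from the gene start; bars are 95% Wilson intervals, which cover counting error only. In each of the 11 windows the female and male files of a cell type lie on the same side of both files of the other. The choice of windows by their difference in both sexes favours this.

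Among the BH3-only genes, Bcl2l11 on the plus strand of chromosome 2 had 5 of 57 windows called, 3 higher and 2 lower in B cells, none of them adjoining. The intron 3 window chr2:128153001-128154000 was at 31.8% and 27.4% in B and 5.85% and 4.44% in T cells (difference 24.4 points, adjusted p = 1.81e-33). Only 4 kb further in the same intron, chr2:128157001-128158000 was at 58.7% and 57.4% in B and 81.1% and 79.0% in T cells (difference -22.0 points, adjusted p = 1.52e-10). In the 3′ untranslated region, chr2:128160001-128161000 was at 70.8% and 70.6% in B and 42.0% and 47.0% in T cells (difference 26.2 points, adjusted p = 1.67e-05). No Bcl2l11 window was called at a limit of 30 points, nor any of its 29 windows of 2 kb (12 by unadjusted p under 0.05). The windows chr2:128157001-128158000 and chr2:128160001-128161000 were not called by limma (adjusted p = 0.210 and 0.201) or with the prior dispersion from all windows (0.0584 and 0.112). The body level did not differ beyond the spread (61.2% and 64.3% in B, 64.0% and 63.3% in T cells).

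Bmf, on the minus strand of chromosome 2, had 5 of 42 windows called (11.9%, beside 2.08% of all windows tested), all 5 lower in B cells. By limma, with the prior dispersion from all windows or at a limit of 30 points, 1 of the 42 Bmf windows was called. The window over its 3′ untranslated region, chr2:118529001-118530000, was at 54.1% and 60.9% in B and 96.3% and 93.9% in T cells (difference -37.6 points, adjusted p = 6.04e-32). The window chr2:118534001-118535000 in intron 4 was at 49.6% and 62.8% in B and 83.2% and 82.7% in T cells. The 2 windows at chr2:118518001-118520000, beyond the gene end, were at 53.4% and 56.0% in B and 77.8% and 75.8% in T cells. The body was at 61.1% and 58.8% in B and 70.0% and 71.6% in T cells, 10.8 points lower in B cells (adjusted p = 7.68e-04), and was called in each fit without 1 file, though not by limma.

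An intracisternal A particle (IAP), a retrotransposon that the study examined for variable methylation between mice and chose on libraries of this experiment, lies 5.08 kb upstream of the Bmf start (chr2:118554765-118558375). Over the 8 outermost CpGs of its 5′ end, methylation was 54.2% in female B, 61.8% in female T, 57.1% in male B and 38.9% in male T cells. The 3′ end was at 94.3% to 100% in the 4 files, over 6 usable CpGs. The 5′ end was intermediate in all 4 files, and the cell types overlapped, and B minus T was -7.60 points for the female files and 18.2 points for the male files. Coverage at the 5′ end was 12.8 to 17.4 reads per CpG, and each file holds DNA of several mice. By pyrosequencing, the study found methylation of this element to vary between individual mice and to be alike across tissues of the same mouse. A difference between the sexes therefore cannot be told apart from variation between files here. The window chr2:118556001-118557000 lies wholly inside the element and is among the 42 Bmf windows tested. Over 6 usable CpGs it was at 98.5% and 96.9% in B and 82.6% and 84.1% in T cells, a difference of 14.4 points (adjusted p = 0.00611) that did not reach 20 points. The study left the middle of this element out of its display as repetitive and poorly mapped, so the placement of reads in this window is uncertain.

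Bbc3, on the plus strand of chromosome 7, had 1 of 31 windows called (3.23%, beside 2.08% of all windows tested), chr7:16308001-16309000 over its outermost start. It was at 32.4% and 27.8% in B and 59.9% and 59.7% in T cells (difference -29.7 points, adjusted p = 3.44e-13). It was not called by limma (adjusted p = 0.143), with the prior dispersion from all windows (0.0560), at a limit of 30 points or on a grid shifted by 500 bp, nor was any Bbc3 window of 2 kb. With windows of 500 bp, 2 of 52 were called (beside 2.74% of all such windows), 1 higher and 1 lower in B cells. The body of Bbc3 was at 15.2% to 17.5% in the 4 files.

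Of the effectors, Bak1 on the minus strand of chromosome 17 had 1 of 31 windows called (3.23%, beside 2.08% of all windows tested), chr17:27026001-27027000 in intron 1. It was at 51.7% and 41.0% in B and 93.5% and 93.0% in T cells (difference -46.9 points, adjusted p = 1.58e-30). The gene Ggnbp1 overlaps this window on the opposite strand. With windows of 500 bp, 2 of 56 Bak1 windows were called, 1 higher and 1 lower in B cells. The Bak1 body differed by -4.01 points (adjusted p = 0.0326), under the 5 points required; as a mean over CpGs the difference was -5.28 points and the body was called. Bax, on the minus strand of chromosome 7, had 0 of 24 windows called. For Bax, 3 windows had an unadjusted p under 0.05, beside 12.4% of all windows, and limma and Fisher's exact test called 0. With windows of 500 bp, 2 of 43 were called, beside 2.74% of all such windows. Its highest difference, 17.0 points, lay in the flank beyond the gene end, where other genes are annotated, at 66.3% and 61.0% in B and 49.1% and 44.2% in T cells. The Bax body was methylated above 94% in all files.

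**Figure D5:**
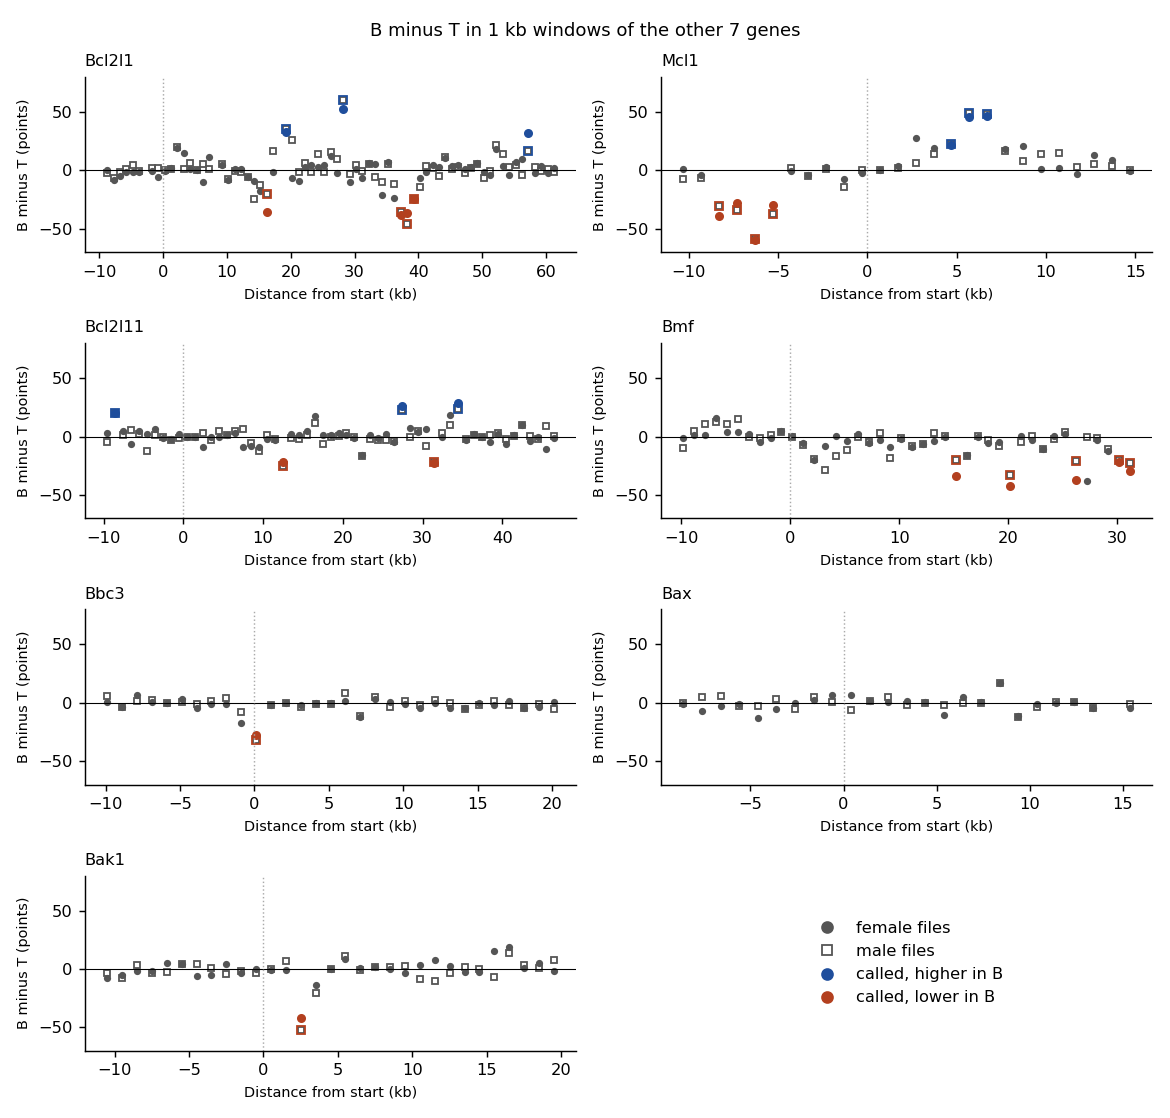
B minus T difference in each 1 kb window by distance from the gene start for the other 7 genes, for the female files (circles) and the male files (open squares), with called windows coloured by direction. Called windows show the same sign in both sexes, which the limit on the mean difference partly builds in. The 5 called windows of Bmf are all lower in B cells. Bbc3 and Bak1 have only 1 called window each, so a single direction is given in advance for them.

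Female and male files were compared in the same fit. None of the 462 windows was called for sex, where 0.00103% of autosomal windows were called. By unadjusted p under 0.05, 26 member windows (5.63%) passed, beside 4.73% of all autosomal windows, and limma (17 by unadjusted p) and Fisher's exact test called 0. The differences between females and males ranged from -15.2 to 11.5 points. The additive model of cell type and sex left a lack of fit at adjusted p under 0.05 in 1 member window, at the Bax start (chr7:45466001-45467000, 64 CpGs), and in 0.0129% of all windows. It was at 14.1% in female B, 7.48% in female T, 7.23% in male B and 13.5% in male T cells. B cells were 6.59 points higher in females and 6.23 points lower in males (adjusted p = 1.34e-04 against the average dispersion). Each of the 4 values is 1 file, so a difference between the sexes cannot be told apart from variation between files here. Over the Bax promoter as a whole, B minus T in females minus B minus T in males was larger, at 17.9 points. Its lack of fit was tested against the prior dispersion of promoters (2.13, with 8.89 degrees of freedom), higher than that of windows (1.31). That F test gave an unadjusted p of 4.18e-04 and an adjusted p of 0.991.

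The 29 other apoptosis genes examined had 45 of 1154 windows called (3.90%, beside 2.08% of all windows and 2.77% of those within protein-coding genes plus 10 kb), 34 higher and 11 lower in B cells. Other survival genes had 3 of 103 (2.91%), other effector and BH3-only genes 2 of 220 (0.909%), the apoptosome and caspase list 18 of 509 (3.54%), and the death receptor list 22 of 322 (6.83%). Cflar, which encodes the caspase-8 inhibitor c-FLIP, had the most, with 10 of 66 windows, all higher in B cells, while its promoter stayed at 1.38% to 2.12% in the 4 files. The death receptor gene Fas followed with 6 of 55, 5 of them with more methylation in B cells, and Apaf1, Birc2 and Fasl had 4 each. Promoters were called at 3 of the 29 genes, all higher in B cells, where 0.915% of all promoters were called. Fasl, the ligand of Fas, was at 81.9% and 87.5% in B and 22.3% and 21.9% in T cells (difference 62.6 points, adjusted p = 8.03e-06). The promoters of Bcl2a1b and Bcl2a1d, survival genes, were higher in B cells by 44.4 and 26.5 points, but these genes have near-identical copies and the placement of their reads is uncertain. No expression was measured in these files.

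Short motifs of lymphocyte factors were counted on both strands of the called windows as a description. The RUNX letters TGTGGT were in 27 of 35 windows with more methylation in B cells and 20 of 28 with less, beside 57.4% of the members' windows that were not called and 53.6% of all windows tested. Over the genome they were in 67.5% of called windows with more methylation in B cells and 58.7% of those with less. The E2A letters CAGCTG were in 10 of 35 and 17 of 28, beside 45.6% of the windows not called and 33.1% of all windows, and genome-wide in 41.2% and 46.2% of called windows. The TCF1 and LEF1 letters CTTTGA were in 17 of 35 and 13 of 28, beside 53.4% and 55.0%, and genome-wide in 63.0% and 52.5%. The EBF1 motif was in 0 of 35 and 2 of 28, beside 3.76% and 1.86%, and genome-wide in 1.43% and 8.14%. The ETS letters CCGGAAGT were in 0 of 35 and 1 of 28, beside 0.743% of all windows. All windows are 1 kb long but were not matched on base composition, and letters in a window are not evidence of binding.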

How the data were processed

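WGBS of 8 samples in 4 groups was analysed from 4 deposited files, 1 per group. The submitters' notes name Trim Galore, FastQC, Bismark 0.13.1 and the mm10 build; filters, duplicate removal and conversion rates are not given in the sources used here, and retained PCR duplicates would widen the true errors. Each file deposited by the authors gives a methylation fraction (rounded to 3 decimals) and a coverage count of reads per CpG, with strands merged and 5 or more reads. Methylated reads were recovered as fraction times coverage (whole within 0.0011 in 100% of entries). All CpGs shared by the files lay on GRCm38 CpGs.

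Reads were summed over 1 kb grid windows (3 or more CpGs), gene starts ± 1 kb and gene bodies (10 or more CpGs, from 1 kb after the start). A quasi-binomial model with cell type and sex (1 residual degree of freedom) was fitted to all features, dispersions were moderated by the squeezeVar function (R 4.3.3, limma 3.58.1), and F tests were adjusted by Benjamini-Hochberg over all features. Windows and promoters were called at adjusted p under 0.05 and 20 points, bodies at 5 points. The prior came from features with 5 or more expected methylated and unmethylated reads in every file, 1190101 of the 2018320 windows. For windows its degrees of freedom were infinite, so every window took the average dispersion of 1.31. The alternative prior dispersion from all windows drops this filter. On simulated B against T data, 92.8% of 2000 windows changed by 30 points among 200000 were recovered, with 13 false calls. All windows were simulated with a common dispersion, as the model assumes. The recovery therefore does not show whether that assumption holds in these data. Files stand for their groups, and replicate spread within a group could not be estimated.

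Named were all 8 members, for each the called window with the largest smaller-of-both-sexes difference in each direction, stretches of 2 or more called windows, other apoptosis genes with a called promoter, and the 3 with the most called windows (with ties for the third); some genes of the lists are not reported here. Windows, stretches and motifs named beyond this rule were chosen after their values were seen. The members and lists were chosen with earlier results of these data known. Runs of low methylation used means over 5 CpGs. Alternatives are given in the closing section. Python 3.11.15 was used.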

Additional observations from a re-analysis of the deposited data

Results flagged for a closer look

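The difference between B and T cells at the Bax start changed sign between the sexes. In the 1 kb window of 64 CpGs, B cells were 6.59 points higher in females and 6.23 points lower in males. B minus T in females minus B minus T in males was 12.8 points. The F test for lack of fit of the additive model, against the average dispersion of windows, gave an adjusted p of 1.34e-04. Over the whole Bax promoter the same contrast was 17.9 points. There the F test against the prior dispersion of promoters gave an adjusted p of 0.991. Each value comes from 1 of the 4 files, so a difference between the sexes cannot be told apart from variation between files.

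At the 5′ end of the IAP upstream of Bmf, the B minus T difference was -7.60 points for the female files but 18.2 points for the male files. This difference between the sexes was not tested.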

How the results depend on the processing

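The 63 member windows called (13.6%, beside 2.08% of all windows) became 112 (24.2%, beside 4.19%) at a limit of 10 points, 37 (8.01%, beside 1.04%) at 30 points, 96 (8.91%, beside 2.08%) with 50 kb on each side, 23 (4.98%, beside 0.694%) with the prior dispersion from all features, 35 (7.58%, beside 1.02%) by limma on log2 ratios, 106 (15.0%, beside 2.74%) with windows of 500 bp and 32 (13.1%, beside 1.40%) with windows of 2 kb. Without each file in turn the count was 62 to 66, and the other 8 alternatives, including the larger of the prior and the window's own dispersion (60, chosen after seeing the data), gave 52 to 68. Over the 11 named windows, 141 of 152 alternative values kept the call, 11 lost it and 0 changed sign. Settings that change only the limit, the test, the prior or the least number of CpGs reuse the same difference, so its sign could not change. A limit of 10 points cannot lose a call made at 20 points. The windows were also chosen for large differences, which favours keeping the call. Only 1 value moved by over 1.5 times, the Mcl1 upstream window (-58.8 to -30.7 points at 10 reads). For promoters, 1 member (Bbc3) was called at a limit of 10 points and 1 with the start ± 500 bp, and 0 in the other 9 alternatives, leave-one-out fits (0 to 0) included. Of the 3 bodies called, limma called 1, and leave-one-out fits called 2 to 3; Bak1 was added by the mean over CpGs. The sex count stayed 0 in all 17 alternatives. The low run was longer in T than in B cells by 3450 bp at Bcl2 and 1861 bp at Mcl1, by 1064 and 2498 bp at a limit of 20%, and by 5067 and 987 bp at 50%. At 20% the Bcl2l11 run was 2618 bp longer in T cells. The 5′ IAP range of 22.9 points became 16.1 with 4 CpGs. B and T files were matched by sex in the model, and the groups share no replicate numbers by which samples could be paired further. With 1 file per cell type and sex, spread between animals was not measured. Each fit without 1 file sets 1 file of a cell type against 2 of the other, so it is no measure of that spread.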
